A study of Mus musculus with 32 samples.

Results

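The sites described here are stretches of open chromatin that were listed at day 10 of reprogramming in mouse cells that overexpressed CTCF, and in neither of the other 2 day 10 conditions. They come from ATAC-seq, in which the Tn5 transposase inserts sequencing adapters where DNA is accessible. The 3 deposited day 10 lists of intervals were pooled and overlapping intervals were merged into 83944 sites. A site counted as held by a list when at least 1 bp of it overlapped an interval of that list. The list with CTCF overexpression held 4643 sites that both other lists lacked, 5.53% of the pooled sites, and these are called oeCTCF-only sites below. The sites were chosen by the presence and absence of intervals in the 3 day 10 lists, so their absence from the oeControl and oeCTCF+shSmarca5 lists defined below is a description and was not tested.

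The day 10 cells were OG2 mouse embryonic fibroblasts infected with retroviruses for Oct4, Sox2, Klf4 and c-Myc (OSKM). OG2 fibroblasts carry a GFP reporter under Oct4 (Pou5f1) regulatory sequence. The 3 day 10 groups were OSKM with a control construct (oeControl), OSKM with CTCF (oeCTCF), and OSKM with CTCF and an shRNA against Smarca5 (oeCTCF+shSmarca5), with 2 samples each. No sort is given in their labels, the medium held vitamin C, and CTCF came from the pMXs-CTCF retrovirus. The remaining 12 lists came from cells that took no part in choosing the sites. They were fibroblasts at day 0 with control shRNA (shLuci) or CTCF shRNA (2 samples each), and 4 sorted populations with the same 2 shRNAs in a TetOn lentiviral OSKM system. The sorted populations were Thy1+ cells of days 3, 6 and 9 (3 samples), SSEA1-Thy1- and SSEA1+ cells of days 6 and 9 (2 samples each), and GFP+ cells of day 12 (2 samples). Last came day 12 cells with no sort in their labels, with control shRNA or Smarca5 shRNA (2 samples each), for which the labels do not say which OSKM system was used. The series thus held 32 samples in 15 groups.

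Each group had 1 list, so no difference within a pair of lists has a replicate check and none is given a p-value. Exact Clopper-Pearson 95% intervals are printed for shares and cover counting error over sites only. The intervals of every list were 400 bp wide with a score of 0, and no read counts were used, so the depth behind each list is unknown. After merging, the lists held 72414 (oeControl), 67561 (oeCTCF) and 66321 (oeCTCF+shSmarca5) intervals at day 10, and 43618 to 213386 over all 15 lists. List length differs between the groups compared, and its part in the shares below was not tested. As a check of the labels, 21, 20 and 19 of 23 pluripotency genes with a known start had an interval within 1 kb of it in the oeControl, oeCTCF and oeCTCF+shSmarca5 lists, and 22 of 27 fibroblast genes had one in each. Of other lineages, 9, 8 and 8 of 9 neural genes had one, 3 of 6 endothelial and 1 of 6 keratinocyte genes in each list, and 3, 4 and 4 of 7 haematopoietic genes. An interval at a start thus did not set the fibroblast and pluripotency lists apart from the neural one. Endogenous Ctcf and Smarca5 had an interval at their start in all 3 lists, which measures neither overexpression nor knockdown.

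CTCF is a zinc finger protein that binds a long GC-rich motif, stops loop extrusion by cohesin and so sets the borders of chromatin domains. Smarca5 (Snf2h) is the ATPase of ISWI remodelling complexes, which slide nucleosomes and keep them in regular arrays beside bound CTCF. During reprogramming, fibroblast enhancers bound by AP-1, Runx and Tead factors close and the enhancers and promoters of the pluripotency network open. Thy1 marks cells that remain fibroblast-like, SSEA1 marks cells that have entered reprogramming, and the Oct4 reporter marks cells that have reached pluripotency.

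Sequence was at hand only for gene promoters, from RefSeq on the build GRCm38.p6. Of these, 5 are printed because oeCTCF-only sites cover them in whole or in part and the later results return to them. Each runs 5′ to 3′ on the strand of its gene and ends at the base before the transcription start. In Pou5f1 the capitals are the 8-base KLF core, in Ggt7 and Gm39566 they are the 12-base CTCF core, and in Esrrb and Krt7 they are the bases that lie inside the oeCTCF-only site.
Pou5f1 (chr17:35505782-35506031, + strand): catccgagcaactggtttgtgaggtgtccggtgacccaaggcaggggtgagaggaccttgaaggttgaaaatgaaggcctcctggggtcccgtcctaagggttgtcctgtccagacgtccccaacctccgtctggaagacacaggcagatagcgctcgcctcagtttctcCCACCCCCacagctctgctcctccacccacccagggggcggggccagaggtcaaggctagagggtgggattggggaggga
Esrrb, upstream start (chr12:86360867-86361116, + strand): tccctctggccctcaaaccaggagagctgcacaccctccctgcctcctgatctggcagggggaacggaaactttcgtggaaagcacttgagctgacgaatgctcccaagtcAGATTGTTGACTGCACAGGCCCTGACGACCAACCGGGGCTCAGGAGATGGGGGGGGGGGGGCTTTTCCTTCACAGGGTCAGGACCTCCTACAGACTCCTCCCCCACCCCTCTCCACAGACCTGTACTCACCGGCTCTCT
Krt7 (chr15:101412153-101412402, + strand): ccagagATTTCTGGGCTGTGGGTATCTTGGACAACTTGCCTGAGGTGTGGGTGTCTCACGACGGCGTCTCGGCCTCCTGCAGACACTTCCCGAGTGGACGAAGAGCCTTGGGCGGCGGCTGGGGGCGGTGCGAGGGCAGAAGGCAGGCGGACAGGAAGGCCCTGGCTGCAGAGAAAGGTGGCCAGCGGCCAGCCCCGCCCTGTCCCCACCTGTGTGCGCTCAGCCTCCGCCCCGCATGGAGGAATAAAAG
Ggt7 (chr2:155514847-155515096, - strand): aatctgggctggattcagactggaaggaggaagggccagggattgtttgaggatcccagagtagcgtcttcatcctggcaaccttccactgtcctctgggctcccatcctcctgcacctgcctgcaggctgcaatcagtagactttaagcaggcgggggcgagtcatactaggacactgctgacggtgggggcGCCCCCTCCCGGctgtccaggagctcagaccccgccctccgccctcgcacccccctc
Gm39566 (chr11:69815345-69815594, - strand): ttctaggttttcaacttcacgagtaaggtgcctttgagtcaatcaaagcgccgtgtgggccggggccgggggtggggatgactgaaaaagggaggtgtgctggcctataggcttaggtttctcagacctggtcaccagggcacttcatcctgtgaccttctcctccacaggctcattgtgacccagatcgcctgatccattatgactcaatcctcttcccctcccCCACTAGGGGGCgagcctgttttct
The Pou5f1 promoter printed here lay inside its site whole, and the cores of Pou5f1, Ggt7 and Gm39566 lay inside theirs. These 5 promoters had 55.2% to 66.0% G and C.

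Every oeCTCF-only site was 1 single interval of 400 bp. The nearest interval of the other 2 day 10 lists was at a median of 6576 bp. It was under 10 kb away for 2974 sites (64.1%), under 1 kb for 395 (8.51%), under 500 bp for 65 (1.40%) and under 100 bp for 3, with the closest at 39 bp. On the other side of the rule, 63020 oeCTCF intervals overlapped one of the other lists, and 63019 of them lay at the identical position. The smallest such overlap was 92 bp. The classes to set them beside are the 5260 control-only sites (6.27% of the pooled sites), the 4178 shSmarca5-only sites (4.98%), named for the single list that held each, and the 52489 sites in all 3 lists (62.5%). A further 7720 sites were shared by oeControl and oeCTCF, 6945 by oeControl and oeCTCF+shSmarca5, and 2709 by both CTCF lists. The oeCTCF list thus had fewer sites of its own than the oeControl list.

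Among the 6 control shRNA lists, the oeCTCF-only sites were held most often by that of GFP+ cells and least often by that of day 12 cells with no sort label. The GFP+ control list held 53.7% of them (52.2 to 55.1), against 66.1% of all day 10 sites. In the Thy1+, SSEA1-Thy1- and SSEA1+ control lists the shares were 48.1%, 45.7% and 44.4%, against 81.2%, 80.1% and 76.7% of all day 10 sites. The day 0 control list held 31.0% (29.7 to 32.3), against 59.1%. The day 12 control list, the shortest of all with 43618 merged intervals, held 7.56%, against 39.7%. All 6 shares lay below those of all day 10 sites. The GFP+ control list was shorter than the control lists of day 0, Thy1+, SSEA1-Thy1- and SSEA1+ cells, with 91337 merged intervals against 135749 to 194446, and yet held a larger share of the oeCTCF-only sites than each of them. This was not particular to oeCTCF-only sites. The GFP+ control list held 79.2% of the sites shared by oeControl and oeCTCF. The day 0, Thy1+, SSEA1-Thy1- and SSEA1+ control lists held 49.9%, 66.6%, 66.7% and 67.7% of those.

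Set beside control-only sites, the order of the classes turned between the GFP+ lists and the rest. The GFP+ control list held 53.7% of oeCTCF-only sites, 47.3% of control-only sites (46.0 to 48.7) and 19.2% of shSmarca5-only sites. In the day 0 control list the same 3 shares were 31.0%, 39.0% and 34.8%, and in the Thy1+ control list they were 48.1%, 59.8% and 65.1%. Over the 12 lists, oeCTCF-only sites were held less often than control-only sites in 10 and more often in 2, the 2 GFP+ lists, and the same counts were found against shSmarca5-only sites. Sites in all 3 day 10 lists, and sites shared by oeControl and oeCTCF, were held more often than oeCTCF-only sites in each of the 12 lists. These class differences rest on 1 list each and were not tested.

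**Figure D1:**
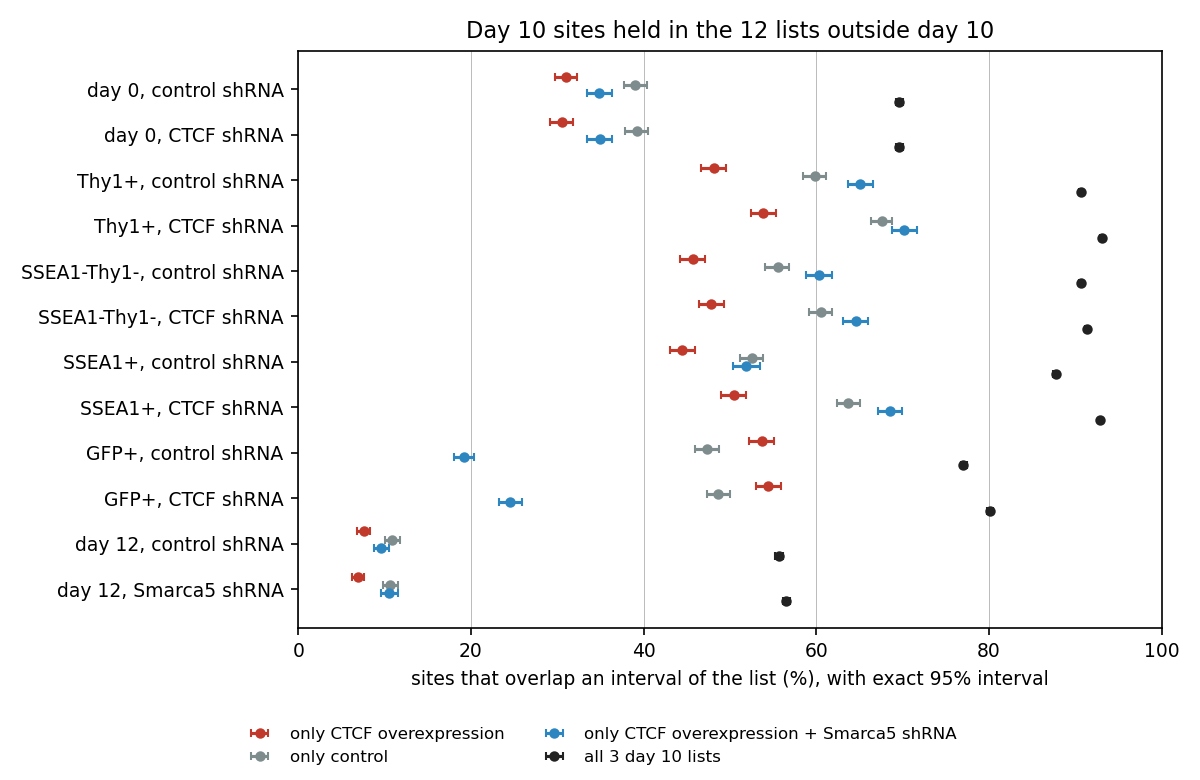
Share of day 10 sites, in percent, that overlap an interval of each of the 12 lists outside day 10 (rows). Points are the 4 classes of day 10 sites and bars are exact 95% intervals over sites. In both GFP+ rows the oeCTCF-only sites lie above the control-only and shSmarca5-only sites, at 53.7% and 54.4%, and in the other 10 rows they lie below both.

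Joining the 2 ends of the time course, 1516 oeCTCF-only sites (32.7%, 31.3 to 34.0) were held by the GFP+ control list and not by the day 0 control list. The reverse pattern, held at day 0 and not in GFP+ cells, was found at 462 sites (9.95%). Both lists held 977 (21.0%) and neither held 1688 (36.4%). Among control-only sites, 1317 of 5260 (23.9 to 26.2%) were held in GFP+ cells and not at day 0, and 16.8% the reverse. Among shSmarca5-only sites these shares were 10.9% and 26.6%, and among all day 10 sites 20.6% and 13.6%. The oeCTCF-only sites thus had the largest share held in GFP+ cells and not at day 0 of the 3 classes that 1 list holds. Sites shared by oeControl and oeCTCF had a higher one, 35.0%.

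The course through the sorted populations was mixed. Of the oeCTCF-only sites, 1439 (31.0%) were in none of the 5 control lists of day 0, Thy1+, SSEA1-Thy1-, SSEA1+ and GFP+ cells. This share was 21.9% for control-only sites, 24.7% for shSmarca5-only sites and 4.38% for sites in all 3 day 10 lists. All 5 control lists held 629 (13.5%), against 16.6%, 5.39% and 55.5% of those classes in the same order. Sites absent at day 0 and held from Thy1+ cells onwards numbered 480 (10.3%), against 8.44%, 6.41% and 14.2%. Sites held by the GFP+ list alone numbered 386 (8.31%), against 7.32% of control-only and 1.29% of shSmarca5-only sites. Sites held by the 3 intermediate populations and by neither end numbered 147 (3.17%), against 9.49% of control-only and 21.0% of shSmarca5-only sites. That transient pattern was thus rarer among oeCTCF-only sites than in the other classes held by a single day 10 list.

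**Figure D2:**
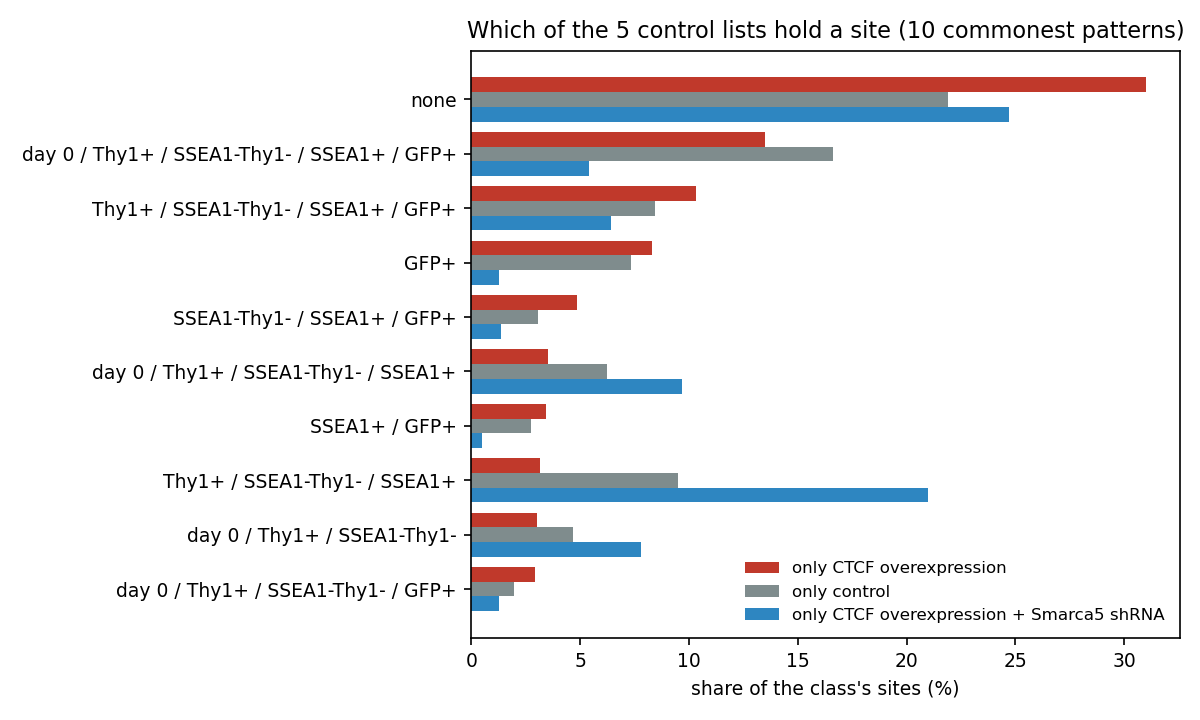
Share of sites, in percent, by which of the 5 control shRNA lists hold them (rows, the 10 commonest patterns among oeCTCF-only sites), for the 3 classes held by a single day 10 list. The row with no list reaches 31.0% for oeCTCF-only sites, and the row of Thy1+, SSEA1-Thy1- and SSEA1+ reaches 3.17%, against 21.0% for shSmarca5-only sites.

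Counting all 12 lists, 1394 of 4643 oeCTCF-only sites were in none of them, against 1066 of 5260 control-only sites (20.3%), 23.2% of shSmarca5-only and 9.02% of all day 10 sites. All 12 lists held 43 (0.926%), against 26.4% of all day 10 sites. The median oeCTCF-only site was in 5 of the 12 lists, and the median day 10 site in 9. A gene body held 55.8% of the sites that were in the GFP+ control list and 59.9% of those in none of the 12 lists, and 8.22% and 7.66% lay within 1 kb of a gene start.

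How often these sites were listed when CTCF was knocked down was read from the 5 pairs of CTCF shRNA and control shRNA lists, which the choice of the sites did not use. Control shRNA and CTCF shRNA lists held 31.0% and 30.5% at day 0, 48.1% and 53.8% for Thy1+ cells, 45.7% and 47.8% for SSEA1-Thy1-, 44.4% and 50.5% for SSEA1+, and 53.7% and 54.4% for GFP+. CTCF shRNA thus went with a larger share in 4 of 5 pairs. The mean change was 2.83 ± 2.95 percentage points (SD, n = 5 pairs), with p = 0.125 in an exact permutation test that flips the signs of the pairs (two-sided) and 0.167 after Benjamini-Hochberg adjustment over 4 measures. With 5 pairs the smallest p that this test can give is 0.063, so it cannot pass a threshold of 0.05.

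The change was set against that of other day 10 sites in the same pairs of lists. This does not remove the part of list length, because the classes differ in share before knockdown. The Thy1+ and SSEA1+ control lists held 90.7% and 87.7% of sites in all 3 day 10 lists, against 48.1% and 44.4% of oeCTCF-only sites. Of those they lacked, 34.7% and 53.0% were gained with CTCF shRNA, against 18.1% and 21.4% of oeCTCF-only sites. For control-only sites the change was 0.11, 7.78, 4.98, 11.22 and 1.29 points in the same 5 pairs, above that of oeCTCF-only sites in each. The difference was -2.24 ± 1.90 points (SD, n = 5 pairs, below 0 in 5 of 5), at the smallest p the exact permutation test allows, 0.063, and 0.167 after adjustment. Against sites in all 3 day 10 lists the difference was 0.561 ± 2.12 points (above 0 in 3 of 5, exact permutation p = 0.625, 0.625 after adjustment). This last difference was -0.129 without the Thy1+ pair, 0.334 without the SSEA1-Thy1- pair and 1.28 without the GFP+ pair. The log2 ratio of sites held, shRNA over control, minus that of whole list lengths was -0.0926 ± 0.112 (1 of 5 above 0, exact permutation p = 0.125, 0.167 after adjustment), and -0.0528 without the SSEA1+ pair. None of the 4 measures passed the threshold.

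**Figure D3:**
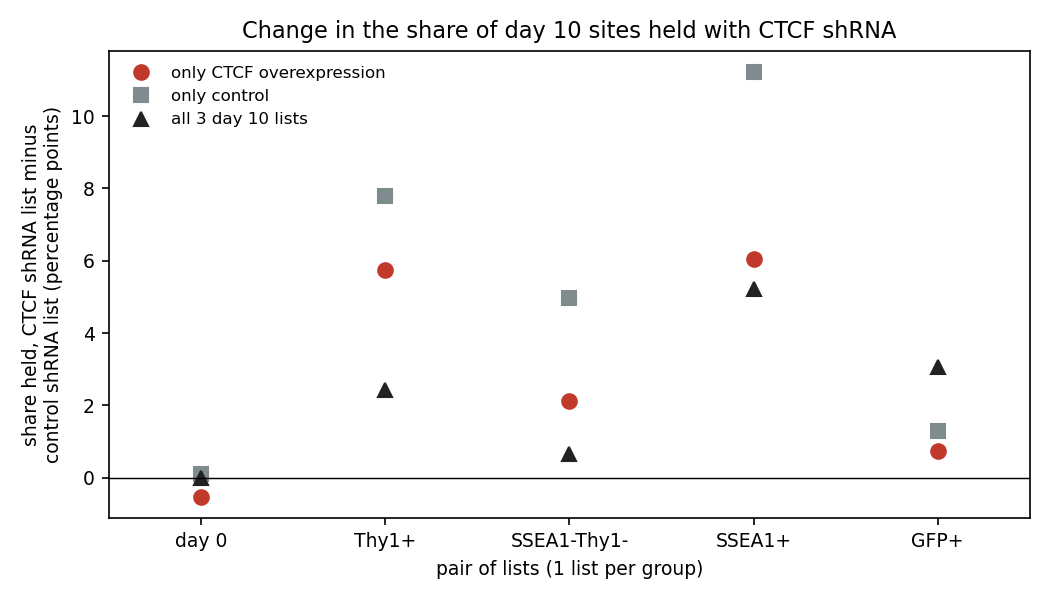
Change in the share of day 10 sites held, CTCF shRNA list minus control shRNA list, in percentage points (y) for 5 pairs of lists (x), with 1 point per class and pair and no error bar because each group has 1 list. The oeCTCF-only sites (red) lie below the control-only sites (grey) in all 5 pairs, and 4 of 5 red points lie above 0.

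Behind these net values the oeCTCF-only sites both left and entered the lists. Of the 1439 held at day 0 with control shRNA, 178 were lost with CTCF shRNA (12.4%), where 4.27% of all held day 10 sites were lost. In Thy1+ cells 7.57% were lost, where the share over all day 10 sites was 1.77%. The corresponding values were 14.6% and 3.38% for SSEA1-Thy1-, 13.1% and 3.03% for SSEA1+, and 10.7% and 6.42% for GFP+. Loss was thus above the background in all 5 pairs. Control-only sites were lost at 5.31%, 3.75%, 6.95%, 7.57% and 13.7%, lower than oeCTCF-only sites in 4 pairs and higher in GFP+ cells. Sites gained with CTCF shRNA were 4.81%, 18.1%, 16.2%, 21.4% and 14.0% of the oeCTCF-only sites that the control lists lacked, each below the background of 5.89%, 27.5%, 22.1%, 41.1% and 21.0%. Control-only sites were gained at 3.59%, 24.9%, 19.9%, 32.0% and 14.8%, lower than oeCTCF-only sites at day 0 and higher in the other pairs, by little in GFP+ cells. At day 12, Smarca5 shRNA went with the loss of 71 of 351 held sites (20.2%, 16.1 to 24.8), where 3.32% of all held day 10 sites were lost and 16.2% of control-only sites. It went with a gain at 0.932% of the 4292 oeCTCF-only sites lacking there, where the background was 3.00% and control-only sites were gained at 1.69%. The share held moved from 7.56% to 6.89%. With 1 list per group none of these losses and gains was tested.

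Most oeCTCF-only sites lay away from gene starts. Of 4643 sites, 2674 (57.6%, 56.2 to 59.0) lay in the body of a gene, against 45.2% of control-only, 54.1% of shSmarca5-only and 60.1% of all day 10 sites. Gene starts were known for chromosomes other than 18, which held 120 of the sites. Of the remaining 4523 sites, 363 (8.03%, 7.25 to 8.86) had their centre within 1 kb of a start, against 4.57% of control-only, 4.17% of shSmarca5-only, 25.8% of sites in all 3 lists and 18.5% of all day 10 sites. The median distance to a start was 19065 bp, against 33547 bp for control-only and 30394 bp for shSmarca5-only sites. Within 100 bp of a start lay 2.70% of oeCTCF-only sites, 0.907% of control-only and 0.696% of shSmarca5-only sites. Among sites held by a single day 10 list, those of the oeCTCF list were thus nearest to starts, while still far fewer there than sites common to all 3 lists. By chromosome, they made up 4.39% (chromosome 13) to 6.86% (chromosome 5) of the day 10 sites on autosomes and 5.52% on the X.

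**Figure D4:**
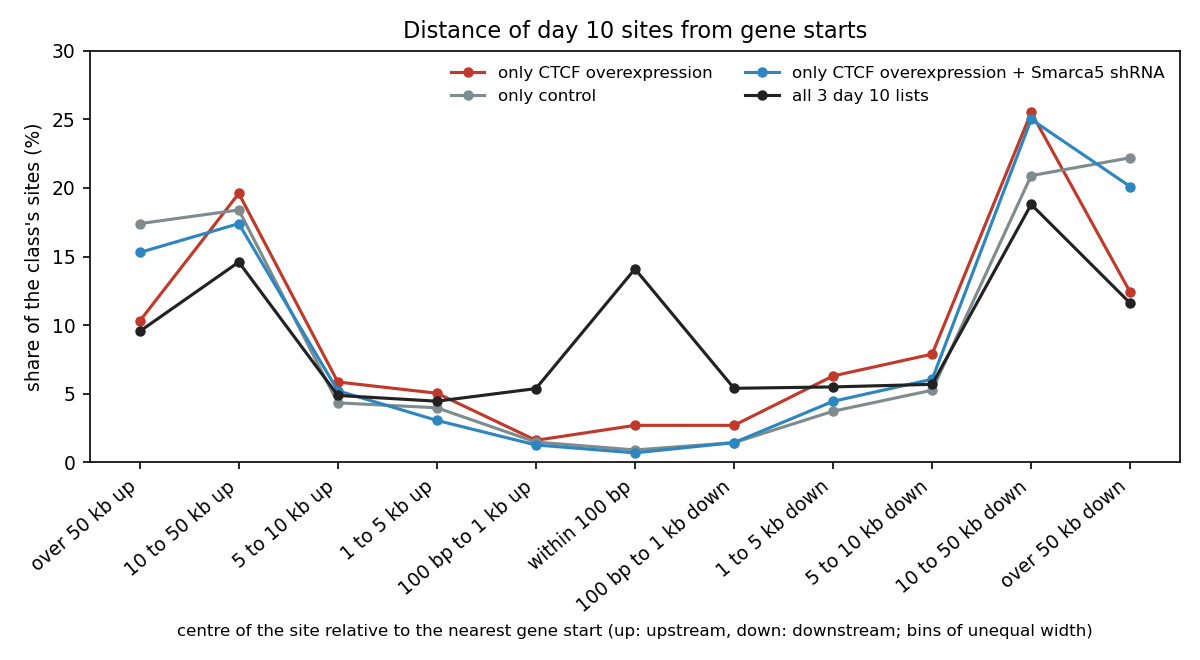
Share of each class's sites, in percent, by the distance of the site's centre from the nearest gene start (bins of unequal width, upstream at left, downstream at right). Sites in all 3 day 10 lists peak at the start with 14.1% within 100 bp, where oeCTCF-only sites have 2.70%, and oeCTCF-only sites have smaller shares over 50 kb away than control-only sites.

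Of 21887 protein-coding genes, 3360 (15.4%) had an oeCTCF-only site within 10 kb of the gene body, and 2770 (12.7%) a control-only site. Most of the 3360 had 1 such site, 477 had 2, and 10 genes had 5 or 6. Gse1, which encodes a protein of histone deacetylase complexes, had 6 and no control-only site, of 43 day 10 sites in its region of chromosome 8. The genes with 5 each were Atp9a, Camta1, Casz1, Celf4, Dpp6, Grik3, Prdm16, Prex1 and Tspear. Camta1, Casz1 and Prdm16 encode transcription factors, Celf4 an RNA-binding protein, Grik3 a kainate receptor subunit and Prex1 an activator of Rac. Atp9a and Grik3, like Gse1, had no control-only site, and the other 7 had 1 to 4. These genes are long, from 107933 bp (Atp9a) to 910144 bp (Dpp6), and length was not adjusted for.

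Among 238 genes of 13 lists, 44 (18.5%) had an oeCTCF-only site within 10 kb, close to the 15.4% over all protein-coding genes, with 58 sites in all. Of these 58 sites, 31 were held by the GFP+ control list, 21 by the day 0 control list and 20 by none of the 12 lists. For pluripotency, 6 of 35 genes (17.1%) had a site. They were Pou5f1, the Oct4 gene itself, Esrrb, an orphan nuclear receptor of the naive network, Tdgf1, a Nodal co-receptor, Lefty1, a Nodal inhibitor, Fgf4, and Tdh, a threonine dehydrogenase of mouse stem cells. A control-only site was near 4 genes of this list. Esrrb had 3 oeCTCF-only sites, 1 control-only site and 13 day 10 sites in all.

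The site at Pou5f1 (chr17:35505763-35506162) was centred 70 bp upstream of the start and covered the promoter printed above. It was held by 5 of the 12 lists, namely both day 0 lists, the SSEA1-Thy1- control list and both GFP+ lists. It was thus listed in fibroblasts and again in pluripotent cells, and in 1 of the 6 lists of sorted intermediates. The OG2 reporter holds Pou5f1 regulatory sequence, so reads of the reporter and of the gene cannot be told apart in these lists. At Esrrb, the site at the upstream start (chr12:86360978-86361377, centre 60 bp downstream of it) was in none of the 12 lists. The second (chr12:86463075-86463474) was in 4 lists, the SSEA1+ control, Thy1+ CTCF shRNA and both GFP+ lists. The third (chr12:86518753-86519152) was in 9, including both day 0 lists. One gene thus had sites of quite different histories.

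Tdgf1 had a site 1406 bp outside its body that 6 lists held, GFP+ control among them, and a second, 6201 bp outside, that none held. The Fgf4 site, 9679 bp outside the gene, was in 6 lists, among them both GFP+ lists and neither day 0 list. The sites inside Lefty1 and Tdh were in none of the 12 lists. Over the 9 sites of this list, the GFP+ control held 5, the day 0 control 3 and no list 4.

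Among fibroblast and mesenchymal genes, 9 of 45 had an oeCTCF-only site and 10 a control-only site. They were the collagen genes Col1a2, Col5a1, Col6a1 and Col6a3, the myosin light chain gene Myl9, the receptor genes Pdgfra, Pdgfrb and Tgfbr2, and Cdh11, a mesenchymal cadherin. Of their 12 sites the day 0 control list held 6, the GFP+ control list 5 and no list 4. At Pdgfra, the site chr5:75151118-75151517 covered the first base of the gene body. Its centre was at -934 bp from the nearest known start, which lies inside the gene body. This site was in 10 lists, all but the day 12 ones, so it was open at most stages and absent from the 2 other day 10 lists. The site at Col1a2 was in the same 10 lists. Sites at Col6a1, Col6a3, Tgfbr2 and Cdh11 were in none.

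Epithelial genes, which rise in the mesenchymal-to-epithelial transition of reprogramming, had an oeCTCF-only site at 6 of 25 (24.0%) and a control-only site at 5. The site at Krt7, a simple epithelial keratin gene, was centred 45 bp upstream of the start, in the promoter printed above, and was in 5 lists, both GFP+ lists, the day 12 control list and the Thy1+ and SSEA1+ lists with CTCF shRNA. In those Thy1+ and SSEA1+ pairs the control list lacked it. Esrp1, an epithelial splicing factor, had a site in 7 lists. Sites at the claudin genes Cldn3 and Cldn4 and at Crb3 were in none of the 12 lists. None of the 6 sites of this list was in a day 0 list. Over all oeCTCF-only sites the day 0 control list held 31.0%, and 6 sites are too few to set apart from that.

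For AP-1, Runx and Tead factors and their partners, 6 of 22 genes (27.3%) had an oeCTCF-only site and 4 a control-only site: Fosb, Jund, Runx1, Tead4, Yap1 and Ankrd1. Runx1 had 3 sites, in 0, 6 and 10 lists, none of them GFP+. Among CTCF and cohesin genes 2 of 14 (14.3%) had one, against 5 with a control-only site. They were Nipbl, the cohesin loader, in 6 lists, and Pds5a, a cohesin regulator, in 3. Of ISWI and BAF remodeller genes, 9 of 27 (33.3%) had a site and 6 a control-only site. Arid1b, a BAF subunit gene of 353360 bp, had 4 oeCTCF-only and 3 control-only sites. The site in Smarcc1, another BAF subunit, was in all 12 lists, and those at Arid1a, Arid2, Baz2b and Smarcd1 were in none. Neither Ctcf nor Smarca5 had an oeCTCF-only site within 10 kb.

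Marker genes of cells that fibroblast cultures might also hold had few. Endothelial genes had a site at 3 of 10 (Vwf, Eng and Tie1), and haematopoietic (Cd34), keratinocyte (Trp63) and trophoblast or endoderm genes (Hand1) at 1 of 10 each. Neural, housekeeping and cell cycle arrest genes had a site at 0 of 10 each. Read against the background of 15.4%, counts from 0 to 3 of 10 are no result about these lists.

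A stricter view takes genes whose start had an oeCTCF-only site within 1 kb and no oeControl interval there. They numbered 184 of 17492 protein-coding genes (1.05%), while 88 (0.503%) had the mirror pattern, a control-only site and no oeCTCF interval. For 124 of the 184 (67.4%) the GFP+ control list also had an interval within 1 kb of the start, and for 71 (38.6%) the day 0 control list had. For the 88 mirror genes these were 52 (59.1%) and 47 (53.4%). The GFP+ list thus marked more of the first set and the day 0 list more of the second, in share. The same shares over all 17492 genes were not counted, so neither set can be placed above or below a background. Pou5f1, Esrrb, Krt7 and Pdgfra were the 4 list genes among the 184.

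At 29 of the 184 genes none of the 12 lists had an interval at the start, in addition to the oeControl list. The first 15 of these by symbol, which the oeCTCF+shSmarca5 list lacked as well, were Acox2, Ankrd22, Arhgap45, Asic2, Ccdc42, Creb3l3, Crhr2, Ctdsp2, Esrrb, F10 and 5 predicted genes. Acox2 encodes a peroxisomal oxidase of bile acid synthesis, Creb3l3 a transcription factor of the liver and F10 coagulation factor X. Asic2 encodes an acid-sensing ion channel and Crhr2 a receptor of corticotropin-releasing hormone. The site at Ankrd22 was centred 8 bp downstream of the start, that at Ctdsp2, a phosphatase gene, 60 bp downstream, and that at Creb3l3 66 bp upstream. The predicted genes were Gm13277, Gm13288, Gm39566, Gm9639 and Gm9736, whose sites were centred 22 to 692 bp from the start. Gm9639 and Gm9736 lie within Tspear. How reads from near-identical gene copies were placed is not given in the sources used here, so sites at such families are uncertain.

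The promoters that the sites overlapped were searched on both strands for 3 short motifs, plus 1 chosen after the data were seen. The sites overlapped 230 promoter windows of 209 genes, each window from 250 bases before to 50 bases after a start. The 12-base CTCF core, of which 2 matches are in capitals above, was in 7 of 230 windows (3.04%, 1.23 to 6.17), against 3.43% of 32817 windows genome-wide, 4.96% at control-only sites and 6.26% at sites in all 3 lists. The AP-1 site TGANTCA, with N any base, was in 6.52%, against 7.81% of all windows and 14.2% at control-only sites. The octamer ATGCAAAT, which Oct4 binds, was in 1 window (0.435%), against 1.74% of all windows. The KLF core GGGNGTGG, the one chosen after the data were seen, was in 24.3% (18.9 to 30.4), against 17.6% of all windows, 14.2% at control-only sites and 24.1% at sites in all 3 lists. A match is a description of the letters and not a bound site. Base composition differed between these sets of windows: those at oeCTCF-only sites had a median of 56.3% G and C and 7 CpG, against 52.7% and 7 for all windows, 50.0% and 5 at control-only sites and 62.3% and 22 at sites in all 3 lists. Its part in the motif shares was not tested. Promoters are also a small and unusual part of the sites, and motifs in the other sites were not analysed here.

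Ggt7, a gene of the gamma-glutamyltransferase family, and Gm39566 had a CTCF core inside the site, shown in capitals above. The Ggt7 core began 57 bp before the start and the Gm39566 core 25 bp before it. An interval at the Ggt7 start was in the 2 day 12 lists and in none of the other 10, while none of the 12 lists had one at the start of Gm39566.

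MicroRNA genes, whose hairpin transcripts are cut into short RNAs that silence messages through their seed (bases 2 to 8), lay near oeCTCF-only sites at 18 of 1005 hairpins (1.79%, within 1 kb), with 6 (0.597%) near control-only and 4 (0.398%) near shSmarca5-only sites. The share near any day 10 site was not counted. As given above, oeCTCF-only sites also lay nearer to gene starts than both other classes, and this was not adjusted for. The 18 hairpins shared 17 sites, and at 8 the site overlapped the hairpin itself. Their 30 mature sequences in the RefSeq table had 29 different seeds, and the 1 seed that 2 of them shared was that of miR-6927-3p and miR-6945-3p. The 4 below were chosen after the values were seen, to show hairpins that a site overlaps and that are listed either nowhere else (miR-130b, miR-26a) or almost solely in GFP+ cells (miR-499, miR-138). Capitals mark the seed.
mmu-miR-130b-3p: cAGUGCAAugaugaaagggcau
mmu-miR-26a-5p: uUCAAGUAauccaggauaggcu
mmu-miR-499-5p: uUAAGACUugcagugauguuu
mmu-miR-138-5p: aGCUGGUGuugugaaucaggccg
The site chr16:17124027-17124426 overlapped both Mir130b and Mir301b, neighbours on chromosome 16, and was in none of the 12 lists. The Mir26a-2 site (chr10:126995474-126995873), also in none, is the one at the Ctdsp2 start. The Mir499 site (chr2:155622583-155622982) was in both GFP+ lists alone, and the Mir138-2 site (chr8:94324078-94324477) in both GFP+ lists and the day 12 list with Smarca5 shRNA. Other overlapped hairpins differed: the Mir7026 site was in 9 lists and the Mir2139 site in 7, both with day 0 control among them. The Mir6944 site was in none. Over the 18 hairpins, the site of 12 was in the GFP+ control list and that of 6 in none of the 12 lists. An open hairpin locus says nothing of the level of the miRNA, which was not analysed here.

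Sites of this class lay near one another more often than those of the other single-list classes. With a gap of under 20 kb counted as a run, 16.5% of oeCTCF-only sites had another in their run, against 10.9% of control-only and 12.0% of shSmarca5-only sites. Runs of 3 or more numbered 35, against 18 and 17, and runs of 4 or more numbered 7, against 2 and 1. Control-only sites were more numerous (5260) and had fewer runs. No test was made of this, since sites are not replicates. The share over all day 10 sites was not counted, so it is not known whether 16.5% is high among them. The oeCTCF-only sites also lay more often in gene bodies and nearer to gene starts than both other classes, and this was not adjusted for.

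The longest run, of 6 sites, lay at Firre (chrX:50560882-50617452), an X-linked lncRNA gene built of tandem repeats that bind CTCF. All 6 were held by the day 0, Thy1+ and GFP+ control lists, 5 by the SSEA1-Thy1- control list, 1 by the SSEA1+ control list and 0 by the day 12 lists. With CTCF shRNA the counts were 6 of 6 at day 0, for Thy1+ and for SSEA1+, 2 for SSEA1-Thy1- and 5 for GFP+. Over these 6 sites CTCF shRNA thus went with fewer in 2 pairs, more in 1 and the same number in 2. Within the whole gene the oeControl list had 11 intervals, the oeCTCF list 13 and the oeCTCF+shSmarca5 list 4. The day 0 control list had 17, Thy1+ 18, SSEA1-Thy1- 11, SSEA1+ 7 and GFP+ 16. The CTCF shRNA lists had 18, 17, 7, 18 and 12 in the same order. These were fewer than with control shRNA for Thy1+, SSEA1-Thy1- and GFP+, and more at day 0 and for SSEA1+. The day 10 counts are in part set by the choice of the sites and are given as a description.

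A run of 4 lay at 4933407K13Rik (chrX:75728471-75759369), whose synonym in the gene table is Dxz4, the other X-linked lncRNA repeat known for CTCF binding and the border of the inactive X megadomains. Here the oeControl list had 2 intervals in the gene, the oeCTCF list 7 and the oeCTCF+shSmarca5 list 3. The GFP+ control list had 8, the day 0 and Thy1+ control lists 6 each and the SSEA1-Thy1- and SSEA1+ control lists 4 each. The day 10 counts are part of how the run was chosen, and nothing is read from them. In the 5 CTCF shRNA lists, ordered as in the plot of the change with CTCF shRNA, the gene had 6, 4, 3, 4 and 7 intervals, fewer than with control shRNA in 3 pairs and equal in 2. In tandem repeats near-identical copies share reads, so the position of each interval within Firre and Dxz4 is uncertain.

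The remaining 5 runs lay on autosomes. A run of 5 spanned Trim11, Trim17 and H3f4 on chromosome 11, where the GFP+ control list held 4 of 5 and the day 0 control list 2. The 4 sites at Nphs1, the nephrin gene on chromosome 7, were held 4 of 4 by both GFP+ lists and 1 of 4 by the day 0, Thy1+, SSEA1-Thy1- and SSEA1+ control lists. At Ppp2r5e, a phosphatase regulatory subunit gene, 3 of 4 were held by the Thy1+, SSEA1-Thy1-, SSEA1+ and GFP+ control lists and 1 at day 0. The Sertad2 run had 2 of 4 in the control lists of all 4 sorted populations. At Nlgn2, next to Gm39566, 2 of 4 sites were in none of the 12 lists. The runs thus differed in history: all Firre sites were listed at day 0, all Nphs1 sites in GFP+ cells, and at Nlgn2 the GFP+ lists held 1 (control shRNA) and 2 (CTCF shRNA) of 4.

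**Figure D5:**
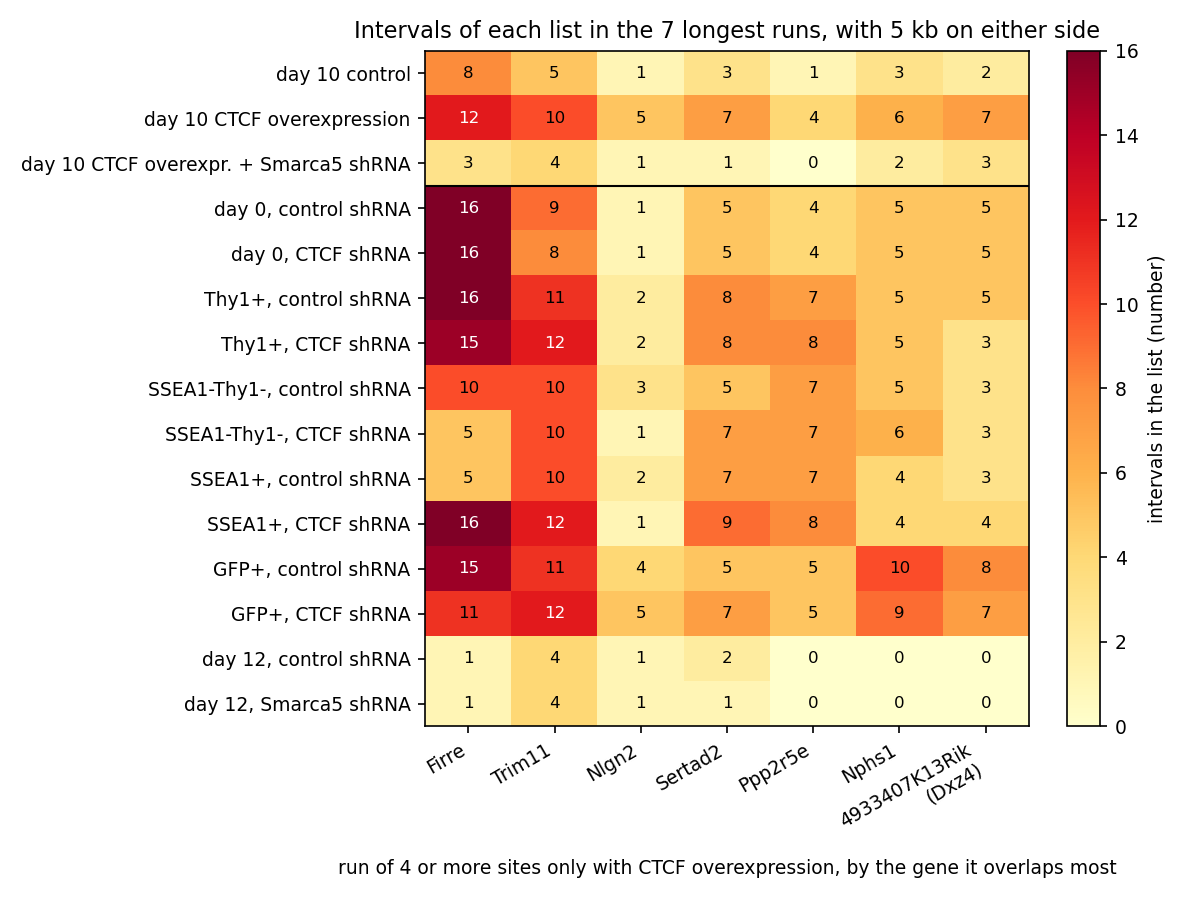
Number of intervals of each of the 15 lists (rows) in the 7 runs of 4 or more oeCTCF-only sites (columns), with 5 kb on either side of the run. The number is written in each cell and the colour scale starts at 0. In each column the oeCTCF list has more intervals than the 2 other day 10 lists, which the choice of the sites favours, and the Firre column has 16 for the day 0 and Thy1+ control lists.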

How the data were processed

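ATAC-seq was made from 32 samples in 15 groups, and all samples of a group name 1 list of peaks. The submitters' processing notes name MACS2, Bowtie2, Picard, SAMtools, FastQC, cutadapt and Trim Galore, and GRCm38 and mm10 as builds. The peak threshold, tool settings and versions, any Tn5 read shift and the way samples were combined were not given in the sources used here. In these lists the deposited score column is 0 throughout, so intervals could not be ranked, and the depth per sample is unknown.

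Intervals were pooled, merged and counted in Python 3.11.15 (numpy 2.4.6, scipy 1.17.1, matplotlib 3.10.9), which was tested on simulated lists. A list held a site at 1 bp of overlap. Where oeCTCF intervals overlapped another day 10 list, 63019 of 63020 lay at its identical position, which overlap with the 12 other lists does not require, so each share held is given beside that of other day 10 sites in the same list. Intervals on shares are Clopper-Pearson (95%). The change with CTCF shRNA was tested over 5 pairs of lists by an exact two-sided sign-flip permutation, with Benjamini-Hochberg adjustment over 4 measures. No set test was made. Genes are those of RefSeq on GRCm38.p6 (21887 protein-coding), and starts, strands and promoter sequences come from its promoter table, which has none on chromosome 18.

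Named genes are those of 13 lists with a site within 10 kb, genes whose start gained a site (at most 15 by symbol among those in fewest other lists), the 10 genes with most sites, and the longest runs. The rule asked for 5 runs, and ties at 4 sites gave 7. Some genes that the rule names are not reported here. Sites, lists and rules were chosen with earlier results of these data known. Alternatives tried were an overlap of 200 bp, an interval within 500 bp, autosomes only, sites without day 10 neighbours, other start and gene windows, and leaving out each pair.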

Additional observations from a re-analysis of the deposited data

Results flagged for a closer look

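Over the 5 pairs of CTCF shRNA and control shRNA lists, 3 measures of the oeCTCF-only sites had values on both sides of 0. With 1 list per group the difference between populations was not tested. Some of the values were close to 0, so their sign does not show that the populations differed. The share held, CTCF shRNA minus control shRNA, was -0.52 percentage points at day 0, and above 0 for Thy1+ (5.75), SSEA1-Thy1- (2.13), SSEA1+ (6.05) and GFP+ cells (0.75). Day 0 was the single pair below 0.

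Measured against sites in all 3 day 10 lists, the change was -0.51 points at day 0 and -2.31 in GFP+ cells, against 3.32 for Thy1+, 1.47 for SSEA1-Thy1- and 0.84 for SSEA1+. By sign, day 0 and GFP+ cells thus lay below 0 and the 3 intermediate populations above it, an order that was not tested. Sites in all 3 lists began from a higher share in each control list, which limits this comparison. Relative to the length of the whole lists, the log2 ratio was 0.03 for Thy1+, -0.03 for day 0, -0.05 for SSEA1-Thy1-, -0.25 for SSEA1+ and -0.16 for GFP+. At this last measure Thy1+ was the single pair above 0, by a small value.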

How the results depend on the processing

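Counting a site as held only at 200 bp of overlap gave shares of oeCTCF-only sites of 28.1% and 27.8% (day 0, control shRNA and CTCF shRNA), 44.1% and 49.0% (Thy1+), 41.8% and 43.7% (SSEA1-Thy1-), 40.8% and 46.3% (SSEA1+), 49.6% and 50.4% (GFP+), and 6.70% and 5.99% (day 12, control shRNA and Smarca5 shRNA). Counting an interval within 500 bp gave 34.7% and 34.3%, 52.7% and 58.6%, 49.8% and 51.8%, 47.7% and 55.1%, 56.6% and 57.6%, and 9.02% and 8.31% in the same order. Both moves follow from the wider or narrower definition. The side of oeCTCF-only against control-only sites was kept in all 12 lists under these 2 alternatives, autosomes only and sites without day 10 neighbours within 500 bp. Within 500 bp of a gene start lay 6.04% of the sites and within 2.5 kb 12.9%. Widening the gene body to 50 kb, where 32.5% of all protein-coding genes have a site, gave 13 pluripotency, 17 fibroblast, 14 epithelial, 4 CTCF and cohesin, 16 remodeller, 2 cell cycle arrest, 2 housekeeping, 4 haematopoietic, 5 endothelial, 2 neural, 2 keratinocyte and 3 trophoblast or endoderm genes.

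Leaving out 1 pair of lists at a time, the mean change with CTCF shRNA ranged from 2.03 to 3.67 points, its difference from control-only sites from -2.67 to -1.51, its difference from sites in all 3 lists from -0.129 (without Thy1+) to 1.28 and the log2 ratio relative to list length from -0.123 to -0.0528. The sign of the third turned without Thy1+ (exact permutation p = 0.875), and the cause was not tested. The number of oeCTCF-only sites was 4532 to 4644 under the alternatives run, which could move it little. The 4532 on autosomes and the 4578 without a day 10 neighbour within 500 bp are parts of the 4643. The 200 bp rule had little to act on, because 63019 of 63020 overlapping oeCTCF intervals lay at the identical position. How firmly each site was called was thus not tested. No paired analysis was possible because each list pools the samples of a group, so replicate numbers cannot be matched across groups. The sign-flip test pairs whole lists by cell population. A stricter peak threshold could not be applied because every score is 0.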

Other observations

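Several genes whose start had an oeCTCF-only site and no oeControl interval are known from the germline or early development, and they are given here as values, chosen after the values were seen, with no list or test behind them. Ddx4, the germ cell RNA helicase Vasa, had a site centred 199 bp downstream of its start, and both GFP+ and both day 12 lists had an interval there. The same 4 lists, of 12, had one at the start of Stk31, a kinase gene of spermatogenesis, whose site was centred 95 bp upstream. At Mael, a gene of piRNA-guided transposon silencing, the site was centred 2 bp upstream and both GFP+ lists, the day 12 control list and the SSEA1-Thy1- control list had an interval. Tex19.2, a gene of germ cells and placenta, and Bmp4, a morphogen gene, each had an interval in both GFP+ lists, the SSEA1+ control list and the SSEA1-Thy1- list with CTCF shRNA. Syce3 and Sycp2, which encode proteins of the synaptonemal complex of meiosis, had an interval in 6 and 9 lists, both GFP+ lists among them. None of these 7 genes had an interval at the start in either day 0 list. Because they were picked with these values known, what they share can come from the choice, and nothing is read from it. Over all 184 genes whose start had an oeCTCF-only site and no oeControl interval, the day 0 control list had one at 71 and the GFP+ control list at 124. The same shares over all protein-coding genes were not counted.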
